A study of Mus musculus with 6 samples.

Results

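Secreted ribonucleases of the pancreas, the protein that inhibits them inside cells, and tissue kallikrein were examined in whole pancreas of mice at postnatal day 7. The group comprised 5 genes, found by exact symbol in all 6 count files: Rnase1, Ang, Rnase4, Rnh1 and Klk1, out of 23337 symbols listed. The 3 mutant libraries came from Ptf1a cre/+ animals that also carried CAG-loxP-STOP-loxP-Prox1-LacZ, a transgene with the broadly active CAG promoter from which Cre removes a stop cassette, so that Prox1 and LacZ are made in cells that have expressed Ptf1a and in their descendants. The 3 control libraries came from animals with the Cre insertion alone, so that Ptf1a cre/+ is common to both groups. Ptf1a is made early in pancreas progenitors and later in acinar cells, and descendants of the progenitors in ducts and islets can also carry the recombined transgene. All animals were of the NMRI strain. Control RNA is called pooled and mutant RNA single-organ in the description of the design, but the extraction text mentions individual pancreata for every sample. Pooling and genotype therefore cannot be told apart. Litters are not stated, and each p-value reflects only how far these 6 libraries spread, which may be technical.

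Ribonucleases of the RNase A family are small secreted enzymes that cut RNA. Their genes lie on mouse chromosome 14, with Rnase1, Ang and Rnase4 near one another. Rnase1 encodes the digestive ribonuclease that acinar cells, the enzyme-producing cells of the pancreas, store in zymogen granules and release into the pancreatic juice. Ang encodes angiogenin, a weak ribonuclease known for cutting tRNA and for promoting vessel growth, and Rnase4 encodes a further secreted family member. Rnh1 encodes the cytosolic ribonuclease inhibitor, a leucine-rich repeat protein that binds enzymes of this family very tightly and protects cellular RNA from them. Klk1 encodes tissue kallikrein, a serine protease of pancreas, salivary gland and kidney that releases kinins from kininogen.

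By the GENCODE M21 annotation (GRCm38, equivalent to mm10), Rnase1 occupies chromosome 14 from 51144998 to 51146785 on the minus strand. Ang lies from 51091150 to 51102009 and Rnase4 from 51091077 to 51106151 on the plus strand of the same chromosome. Rnh1 lies on chromosome 7 from 141160326 to 141172857 on the minus strand, and Klk1 on chromosome 7 from 44225360 to 44229618 on the plus strand. Ang and Rnase4 are overlapping genes that use common first exons: 219 exon bases, which are 18.2% of those of Ang and 13.4% of those of Rnase4, belong to both, and none of them is coding. Apart from these bases, no exon of the 5 members overlaps an exon of another gene on either strand. RefSeq gives both genes an identical start window and Rnase4 a second one, and all 5 members had an entry in its table of windows from 250 bases before to 50 after a start. The windows below, from RefSeq on GRCm38.p6, are shown because Rnase1 and Klk1 had the largest changes among the members and because a single window serves both Ang and Rnase4. They cover chr14:51146718-51147017 on the minus strand for Rnase1, chr14:51090827-51091126 on the plus strand for Ang and Rnase4, and chr7:44225110-44225409 on the plus strand for Klk1. Capitals mark a pair of letter patterns, on either strand, that the Ptf1a complex is known to bind together: the E-box CANNTG and the RBPJ-type box TGGGAA.
Rnase1: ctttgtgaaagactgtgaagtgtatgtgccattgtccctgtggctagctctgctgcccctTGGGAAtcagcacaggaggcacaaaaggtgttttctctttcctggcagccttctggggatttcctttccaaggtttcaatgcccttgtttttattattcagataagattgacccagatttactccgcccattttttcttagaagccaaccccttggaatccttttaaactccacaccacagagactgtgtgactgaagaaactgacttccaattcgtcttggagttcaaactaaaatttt
Ang and Rnase4: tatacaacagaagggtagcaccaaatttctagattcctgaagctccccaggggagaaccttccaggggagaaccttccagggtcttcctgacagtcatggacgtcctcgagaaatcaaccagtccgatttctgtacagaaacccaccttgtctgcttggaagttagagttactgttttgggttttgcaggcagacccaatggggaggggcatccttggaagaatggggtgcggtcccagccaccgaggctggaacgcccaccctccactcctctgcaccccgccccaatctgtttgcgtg
Klk1: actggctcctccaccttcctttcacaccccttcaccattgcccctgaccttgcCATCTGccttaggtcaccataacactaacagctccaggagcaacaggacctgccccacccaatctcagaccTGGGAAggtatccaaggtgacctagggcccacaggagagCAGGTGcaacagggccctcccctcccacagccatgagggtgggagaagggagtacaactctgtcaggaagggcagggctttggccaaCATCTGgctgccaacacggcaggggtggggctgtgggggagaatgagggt

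The Rnase1 window held no E-box and 1 RBPJ-type box, with its first base at -190 from the start. The Klk1 window held 3 E-boxes, at -197, -87 and 1, and 1 RBPJ-type box at -126, none of which overlap. The shared window of Ang and Rnase4 held neither pattern. The second Rnase4 window, chr14:51095750-51096049, held 3 E-boxes, at -142, -130 and 2, and 1 RBPJ-type box at -165. A window of Rnh1, chr7:141168637-141168936, held 3 E-boxes, at -223, -138 and 9, and 1 RBPJ-type box at -156. The other windows of Rnh1 held E-boxes but no RBPJ-type box. Both patterns were thus in windows of Rnase4 and Rnh1, which did not pass the test below, as well as in that of Klk1, which fell. The spacing between the patterns was not considered, and Rnase4 and Rnh1 each had more than 1 window in which to match. Among 32817 windows of this length, 72.32% held an E-box and 25.56% the RBPJ-type box, so both patterns are common. A match describes letters and is no evidence of binding. A further 4 patterns were searched on both strands. The NR5A2-type pattern AAGGTCA, held by 4.723% of all windows, was in the Klk1 window on the other strand. The GATA pattern AGATAA, held by 11.18%, was in the Rnase1 window. The GC box CCCGCCC, held by 25.55%, was in the window of Ang and Rnase4. The TATA pattern TATAAA, held by 13.62%, was in none of the 3 printed windows.

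Total counts lay between 7304727 and 10773223 per library. Levels are given in CPM, counts relative to the size of the library, after TMM scaling, which sets libraries to a common level from genes whose ratios are not extreme. All 26 listed digestive enzyme genes of acinar cells had counts in some library, although Amy2a5 had at most 4 in any and was too low to be tested. Prox1, the gene of the transgene, was at 25.5, 31.3 and 30.9 CPM in mutants 1 to 3 and at 10.83, 7.84 and 9.13 CPM in controls 1 to 3 (1.67 ± 0.15 SE on the log2 scale, edgeR adjusted p = 0.000239), and reads of the transgene and of the native gene were not separated. Control 1 was the only library with Xist in number (7110 counts) and without Y-linked counts, so that it came from female tissue and the other 5 libraries from male tissue.

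Of the 5 members, 3 fell in mutants, 0 rose and 2 did not pass the edgeR test at an adjusted p under 0.05, where 2.06% of all 13017 genes tested passed, 1.51% falling and 0.545% rising. The members that fell were Rnase1, Klk1 and Ang, in order of size, and these were also the 3 whose mutant and control ranges did not overlap, which held for 19% of all genes tested in either direction and for 9.86% with mutants lower. Of the genes that passed, 71 were higher and 197 lower, and with library totals alone 190 were higher and 130 lower. An unadjusted p under 0.05 by edgeR was found for 1662 of the 13017 genes. The DESeq2 Wald test called 336 of 13015 genes, 90 higher and 246 lower. Rnase4 and Rnh1 had overlapping ranges.

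**Figure D1:**
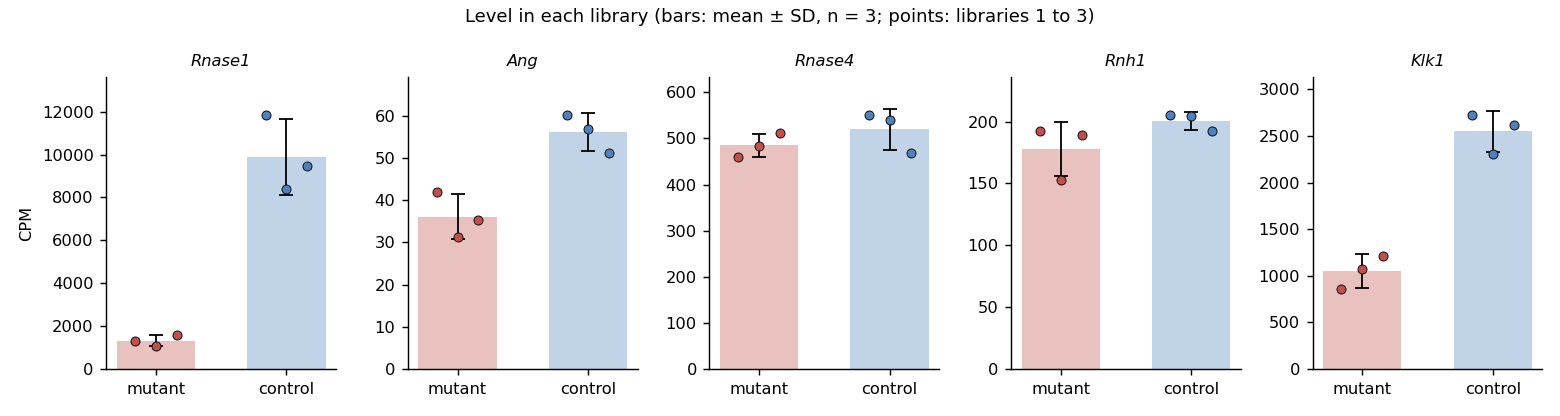
Level of each member in CPM (vertical axes, each from 0) in the 3 mutant libraries and the 3 control libraries. Points are libraries, bars are means and error bars are SD. The mutant points of Rnase1, Ang and Klk1 all lie under the control points, whereas those of Rnase4 and Rnh1 mix with them.

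Rnase1, the digestive ribonuclease, had the largest fall of the 5. It was at 1319, 1053 and 1583 CPM in mutants 1 to 3 and at 11836, 8369.75 and 9481 CPM in controls 1 to 3. The highest mutant thus stayed far under the lowest control. Means were 1318 ± 265 CPM in mutants and 9896 ± 1770.03 CPM in controls (SD, n = 3 each), 7.51-fold lower in mutants (-2.91 ± 0.20 SE on the log2 scale, adjusted p by edgeR 4.84e-05). By raw counts, Rnase1 was the 26th, 29th and 20th most abundant gene in mutants 1 to 3 and the 15th in every control. It took 0.139%, 0.117% and 0.160% of all counts in mutants 1 to 3 and 1.08%, 0.796% and 0.916% in controls 1 to 3. The gene therefore remained abundant in mutants, with between 9072 and 15862 counts per library, while control libraries held between 75754 and 98652. No stretch of 50 bases in its transcript occurs in a transcript of another gene, so its reads have no annotated copy to be confused with. Without control 1, the female library, Rnase1 still fell, by 2.76 on the log2 scale (adjusted p by edgeR 0.000164), and Klk1 by 1.23 (0.00685).

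The fall of Rnase1 was set beside those of 25 tested digestive enzyme genes of acinar cells. Of these, 7 fell, 2 rose and 16 did not pass the test, with a median log2 fold change of -0.30 (by DESeq2, 12 fell and 4 rose), while the median over all genes tested was 0.00. A lower log2 fold change than that of Rnase1 was found for 6 of the 25, namely Ctrl, Pnliprp2, Prss1, Prss3, Try4 and Gm5771. The last 4 of these had very uneven controls. Gm5771, for example, had 5.71, 10.9 and 8.88 CPM in mutants 1 to 3 and 97.7, 4187 and 4443 CPM in controls 1 to 3, and Prss1 had 11.5, 42.6 and 38.1 CPM in mutants 1 to 3 and 118, 4304 and 4557 CPM in controls 1 to 3. SEs of these 4 lay between 0.66 and 1.22 on the log2 scale, and Prss3 overlapped between the groups and did not pass (adjusted p by edgeR 0.0657). Per 1000 counts of this enzyme list, Rnase1 had 2.28, 1.98 and 2.57 counts in mutants 1 to 3 and 17.3, 12.7 and 14.8 counts in controls 1 to 3, a ratio that does not depend on library scaling. The Rnase1 ratio thus fell nearly as far as its CPM, by 2.71 on the log2 scale (two-sided exact permutation p = 0.1, the smallest that 3 libraries against 3 allow). In whole tissue, fewer cells of a type and less RNA per cell cannot be told apart. The summed level of the enzyme list itself was between 532586 and 616790 CPM in mutants and between 641576 and 684179 CPM in controls.

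The genes whose levels ran most like that of Rnase1 over the 6 libraries were sought among 10034 genes with a mean of at least 5 CPM. Likeness was the root mean square difference in log2 CPM after each gene's own mean was subtracted. The closest were 1810053B23Rik (difference 0.176), Pnliprp2, a lipase of the pancreatic juice (0.236), and Lamb3, a chain of the basement membrane protein laminin (0.346). 1810053B23Rik averaged 24.2 ± 2.92 CPM in mutants and 180.3 ± 63.0 CPM in controls (SD, n = 3 each). Pnliprp2 averaged 315 ± 82.1 CPM in mutants and 2720.07 ± 335 CPM in controls. Lamb3 averaged 1.53 ± 0.656 CPM in mutants and 13.5 ± 1.63 CPM in controls. Lamb3 reached the mean of 5 CPM only through its control libraries, having between 7 and 22 counts in each mutant. Likeness took in the difference between the groups, so that a low level in mutants follows from the choice of these 3 genes and is no test.

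Ang, the angiogenin gene, had a smaller fall. Its level was 41.9, 31.2 and 35.2 CPM in mutants 1 to 3 and 60.1, 56.9 and 51.2 CPM in controls 1 to 3. All mutants were under all controls, mutant 1 and control 3 being the nearest. The 95% Poisson intervals of those nearest libraries, 38.1 to 46.0 CPM in mutant 1 and 47.0 to 55.8 CPM in control 3, did not meet, and they cover counting error only. Mean levels of Ang were 36.1 ± 5.39 CPM in mutants and 56.1 ± 4.51 CPM in controls (SD, n = 3 each), 1.55-fold lower in mutants (-0.63 ± 0.12 SE on the log2 scale, adjusted p by edgeR 0.0300). The call was lost when any library but mutant 1 was left out, with edgeR adjusted p between 0.0517 and 0.142, and with library totals alone as the scaling (-0.46, adjusted p = 0.0735). Rnase4, which shares the start window with Ang, was at 460.4, 484 and 511 CPM in mutants 1 to 3 and at 550.3, 541 and 469 CPM in controls 1 to 3. Control 3 lay within the mutant range. Rnase4 averaged 485 ± 25.3 CPM in mutants and 519.97 ± 44.7 CPM in controls (-0.10 ± 0.12 SE on the log2 scale, adjusted p by edgeR 0.810). With library totals alone its sign turned (0.0701), a scaling that put the median of all genes at 0.17.

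The difference between these neighbours was examined as a ratio within each library, which no scaling can move. Per 100 Rnase4 counts there were 9.10, 6.44 and 6.90 Ang counts in mutants 1 to 3 and 10.9, 10.5 and 10.9 in controls 1 to 3. Every mutant lay under every control, and the 3 controls were close to one another. Averages were 7.48 ± 1.42 in mutants and 10.79 ± 0.237 in controls (SD, n = 3 each), a difference of -0.55 on the log2 scale (two-sided exact permutation p = 0.1, the smallest possible). It was 1 of 14 such ratios and sums compared, and its exact permutation p adjusted over them by Benjamini-Hochberg was 0.117, as for each of those with p = 0.1. Leaving out 1 library moved it to between -0.69 and -0.45. How the counting treated reads in the exon bases that both genes share is not given in the sources used here. Summed as a single unit, Ang and Rnase4 differed by -0.14 on the log2 scale and did not pass (adjusted p by edgeR 0.695). Rnase4 supplied most of their counts. Of the stretches of 50 bases in Ang transcripts, 14.5% also occur in other genes, 10.7% in Rnase4.

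The 3 genes most like Ang in pattern were Mif, a cytokine gene (root mean square difference 0.0663), Ckb, the brain-type creatine kinase (0.0695), and Armcx4 (0.0806). Mif averaged 23.1 ± 4.19 CPM in mutants and 33.9 ± 4.57 CPM in controls, Ckb 5.67 ± 0.912 CPM in mutants and 9.05 ± 1.09 CPM in controls, and Armcx4 24.3 ± 3.77 CPM in mutants and 36.0 ± 2.38 CPM in controls (SD, n = 3 each). As for Rnase1, their difference between the groups follows from how they were chosen.

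**Figure D2:**
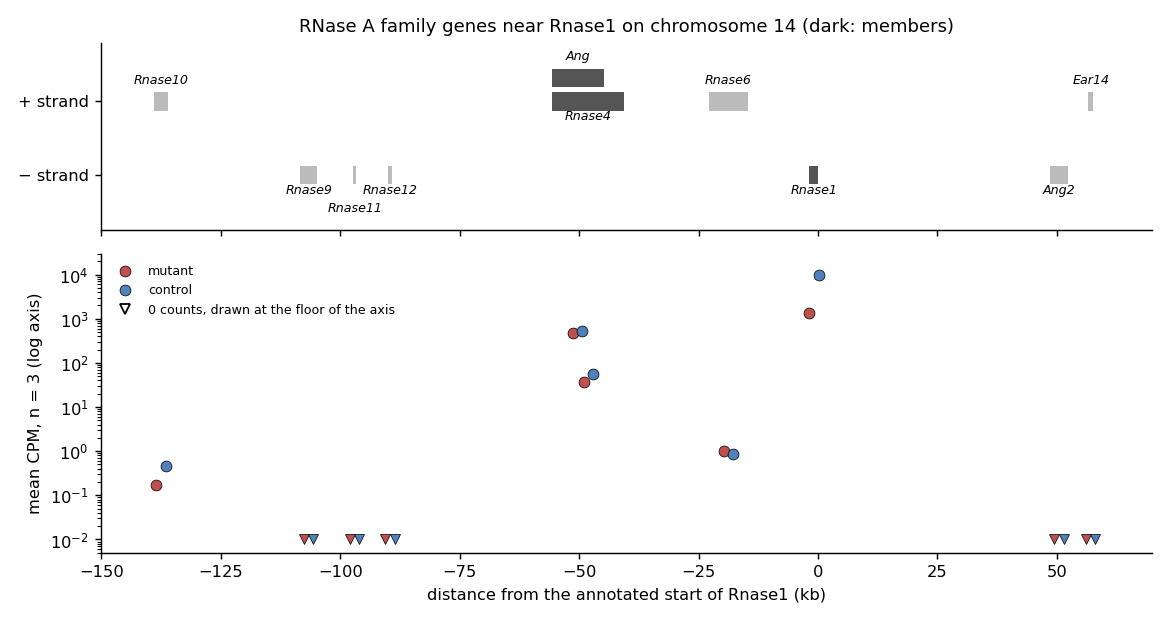
Upper panel: RNase A family genes with a listed count within about 150 kb of Rnase1, drawn to scale by distance from its annotated start (horizontal axis, kb) and by strand. Rnase2a and Rnase2b, nearby family genes that have no listed count, are not drawn. Lower panel: mean CPM of each gene (logarithmic axis, n = 3) in mutants and controls, points being set slightly apart sideways. Rnase1 and Ang lie lower in mutants, Rnase4 lies at nearly the same level, and the other genes drawn are near or at 0 counts.

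Elsewhere in the RNase A family, counts were low or 0. Of 26 family symbols sought, 24 were listed and 15 of those had 0 counts in every library. By counting error alone, this allows up to 3 counts or between 0.286 and 0.451 CPM per library. How reads that fit several genes were counted is not given in the sources used here. A 0 in genes alike in sequence may therefore reflect reads left uncounted. Rnase1, Ang and Rnase4 were the 3 abundant enough to be tested, and 2 of them fell. After these, Rnase6, which encodes a ribonuclease known from white blood cells, had the highest mean. It was at 0.286, 2.78 and 0 CPM in mutants 1 to 3 and at 0.601, 0.884 and 1.06 CPM in controls 1 to 3, and was too low to be tested. Mutant 2, which had the highest Rnase6 value, also had the highest summed level of 11 macrophage markers. That sum was 430.021 CPM, against 343 and 302 CPM in mutants 1 and 3. Much of the lead came from Lyz2, at 139 CPM in mutant 2 and 56.4 and 52.3 CPM in mutants 1 and 3. Cd68, Csf1r, C1qc, Mrc1 and Cd14 were higher in mutant 1 than in mutant 2, and C1qa, C1qb, Fcgr1, Ctss and Aif1 were lower. Among mutants, the summed level of 14 markers of eosinophils, neutrophils and mast cells was also highest in mutant 2. It was 96.8 CPM there and 69.8 and 62.6 CPM in mutants 1 and 3, but 158 CPM in control 2. Of its mast cell genes, Cma1, Tpsb2, Cpa3 and Mcpt4 were higher in mutant 2 than in mutants 1 and 3, and Kit was lower. The part of any of these cells in the Rnase6 value was not tested.

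Within 250 kb of Rnase1, 5 other genes were tested, of which Ang fell and 4 did not pass the test. Besides Rnase4 these were Pnp, Apex1 and Osgep, named for their position, with log2 fold changes of 0.30, -0.13 and -0.08. The annotated ends of Rnase4 and Rnase1 lie 38.8 kb apart.

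The composition of family transcripts moved with Rnase1. It supplied 72.4%, 67.0% and 74.3% of all RNase A family counts in mutants 1 to 3 and 95.1%, 93.3% and 94.8% in controls 1 to 3. Rnase4 supplied 25.3%, 30.8% and 24.0% in mutants and 4.42%, 6.03% and 4.69% in controls. The larger Rnase4 share in mutants stands beside a Rnase4 level that did not pass the test. Summed over the family, levels were 1821, 1572 and 2130 CPM in mutants 1 to 3 and 12448, 8969.69 and 10003 CPM in controls 1 to 3. Per kilobase of annotated exon, which allows levels of different genes to be compared, Rnase1 was 4.73, 3.59 and 5.11 times as high as Rnase4 in mutants 1 to 3 and 35.5, 25.5 and 33.4 times in controls 1 to 3. In both groups the order by CPM per kilobase was Rnase1, Klk1, Rnase4, Rnh1 and Ang. Mean values per kilobase were 1329 ± 268, 976 ± 168, 296 ± 15.5, 68.6 ± 8.49 and 30.0 ± 4.49 in mutants and 9976 ± 1784, 2367 ± 204, 318 ± 27.3, 77.3 ± 2.78 and 46.7 ± 3.76 in controls (SD, n = 3 each). No neighbours in this order overlapped in controls. In mutants the ranges of Rnase1 and Klk1 overlapped, but within each library Rnase1 was the higher, at 1329, 1061 and 1596 CPM per kilobase in mutants 1 to 3 against 797, 1000.13 and 1129.91 for Klk1.

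Rnh1, the inhibitor, was at 192, 153 and 189 CPM in mutants 1 to 3 and at 205, 204 and 192 CPM in controls 1 to 3. Mutant 2 was the lowest library, while mutants 1 and 3 were close to control 3. Averages of 178 ± 22.0 CPM in mutants and 201 ± 7.21 CPM in controls (SD, n = 3 each) differed by -0.17 ± 0.12 (SE) on the log2 scale, which did not pass (adjusted p by edgeR 0.615). Library totals alone gave -0.01. Transcripts of the inhibitor share no stretch of 50 bases with another gene. Enzyme and inhibitor were also set against each other within each library. There were 6.86, 6.89 and 8.37 Rnase1 counts per Rnh1 count in mutants 1 to 3 and 57.7, 41.0 and 49.3 in controls 1 to 3. The ratio averaged 7.37 ± 0.864 in mutants and 49.3 ± 8.35 in controls (SD, n = 3 each), a log2 difference of -2.73. This restates the fall of Rnase1 beside an inhibitor level that differed little, and is no separate test. For Rnase4 the ratio to Rnh1 was 2.39, 3.17 and 2.70 in mutants and 2.68, 2.65 and 2.44 in controls, with overlapping ranges.

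Among 5 genes of the inhibitor and of known partners of angiogenin, 4 were tested and 0 passed by edgeR, with 1 at an unadjusted p under 0.05 and 0 called by DESeq2. Over all genes, 1662 of 13017 had an unadjusted p under 0.05 by edgeR, and DESeq2 called 336 of 13015. Plxnb2, the plexin that acts as a receptor for angiogenin, had a log2 fold change of -0.30 and Egfr, the epidermal growth factor receptor, 0.08, both named after their values were seen. Of 26 other nucleases, which included the RNase H2 subunits, exosome nucleases and Dicer1 and Drosha of microRNA processing, 21 were tested and 0 rose or fell by edgeR, with 2 at an unadjusted p under 0.05 and 0 called by DESeq2. Their median log2 fold change was 0.05, and their summed level was between 420.077 and 430.253 CPM in mutants and between 408 and 412 CPM in controls.

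**Figure D3:**
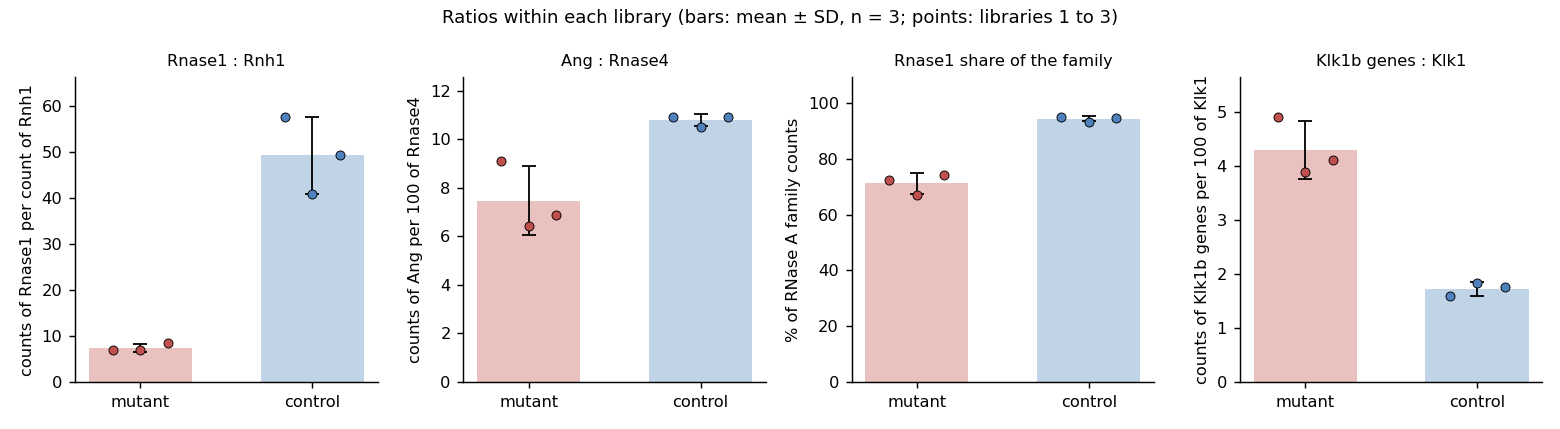
Count ratios within each library, none of which depends on library scaling: Rnase1 per Rnh1, Ang per 100 Rnase4, Rnase1 as a percentage of RNase A family counts, and Klk1b genes per 100 Klk1. Points are libraries, bars are means and error bars are SD (n = 3), with vertical axes from 0. The first 3 ratios are lower in every mutant than in every control and the last one is higher.

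Klk1, tissue kallikrein, was at 858, 1077 and 1217 CPM in mutants 1 to 3 and at 2723, 2303 and 2623 CPM in controls 1 to 3. The groups were well apart, and the spread within each was small beside the gap. Klk1 averaged 1051 ± 181 CPM in mutants and 2549 ± 219.6 CPM in controls (SD, n = 3 each), 2.43-fold lower in mutants (-1.28 ± 0.16 SE on the log2 scale, adjusted p by edgeR 0.00222). Per 1000 counts of the digestive enzyme list there were 1.48, 2.02 and 1.97 Klk1 counts in mutants 1 to 3 and 3.98, 3.51 and 4.09 in controls 1 to 3. The fall was smaller than that of Rnase1, which had 1.54, 0.977 and 1.30 counts per Klk1 count in mutants 1 to 3 and 4.35, 3.64 and 3.62 in controls 1 to 3 (log2 difference -1.62, two-sided exact permutation p = 0.1, the smallest possible). Of the 50-base stretches in Klk1 transcripts, 24.0% also occur in other genes, most often Klk1b5, so some of its reads may not be placed with certainty.

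Genes most like Klk1 in pattern were Ifi27l1 (root mean square difference 0.121), Slc25a35, a member of the mitochondrial carrier family (0.139), and Kctd14 (0.150). Ifi27l1 averaged 25.3 ± 6.02 CPM in mutants and 55.03 ± 4.11 CPM in controls, Slc25a35 8.81 ± 1.55 CPM in mutants and 20.4 ± 0.894 CPM in controls, and Kctd14 10.9 ± 1.37 CPM in mutants and 27.4 ± 5.19 CPM in controls (SD, n = 3 each). Here too the lower level in mutants follows from the choice.

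Across the tissue kallikrein family, Klk1 supplied 95.1%, 96.0% and 95.9% of all counts in mutants 1 to 3 and 98.4%, 98.1% and 98.2% in controls 1 to 3. Of 26 family genes listed, 8 were tested, 1 rose, 1 fell and 6 did not pass, with a median log2 fold change of 0.17. Klk1b24, a kallikrein-like gene that lies 32.9 kb from Klk1, was the one that rose. It had 31, 22 and 39 counts in mutants 1 to 3 and 6, 11 and 11 counts in controls 1 to 3, or 3.13 ± 0.688 CPM in mutants and 1.06 ± 0.157 CPM in controls (1.54 ± 0.32 SE on the log2 scale, adjusted p by edgeR 0.0360). This call was lost by the DESeq2 Wald test (adjusted p = 0.0650) and when any library but mutant 2 was left out (edgeR adjusted p up to 0.166), and 33.9% of the gene's 50-base stretches occur in other genes. Klk1b5, the most abundant family member after Klk1, was at 9.33, 12.5 and 15.0 CPM in mutants 1 to 3 and at 14.4, 15.1 and 18.6 CPM in controls 1 to 3, which overlap (-0.40 on the log2 scale, adjusted p by edgeR 0.409). All Klk1b genes together were at 42.1, 41.9 and 49.9 CPM in mutants 1 to 3 and at 43.2, 42.3 and 46.0 CPM in controls 1 to 3, with overlapping groups. Per 100 Klk1 counts they had 4.30 ± 0.536 counts in mutants and 1.73 ± 0.129 in controls (SD, n = 3 each; two-sided exact permutation p = 0.1, the smallest possible). That ratio restates the fall of Klk1 beside a Klk1b sum that differed little, and is no separate test.

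**Figure D4:**
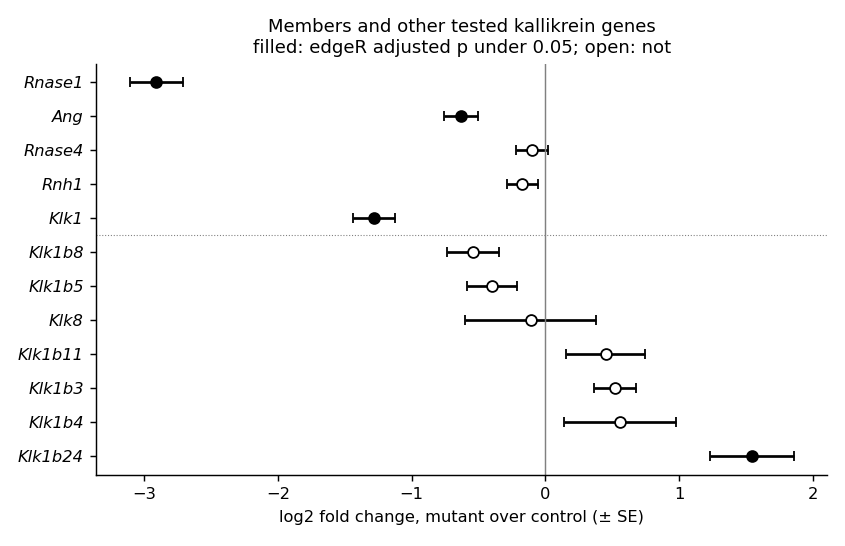
Log2 fold change of mutant over control with its SE (horizontal axis) for the 5 members, above the dotted line, and for the other 7 tested kallikrein genes. Filled points passed the edgeR test at an adjusted p under 0.05. Rnase1, Klk1 and Ang lie to the left of 0 and Klk1b24 to the right, while the remaining genes are open points.

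In the kallikrein-kinin system, the set of proteins that make, sense and break down kinins, 12 of 20 genes were tested, 0 rose and 2 fell. These were Klk1 itself and Cpn1, the catalytic chain of carboxypeptidase N, which trims kinins at their end. Cpn1 was at 64.8, 55.6 and 65.7 CPM in mutants 1 to 3 and at 86.8, 92.0 and 104 CPM in controls 1 to 3, without overlap (-0.61 ± 0.11 SE on the log2 scale, adjusted p by edgeR 0.0192). Its call was lost without mutant 1, mutant 3, control 2 or control 3 (edgeR adjusted p up to 0.0903) and with scaling by library totals alone (0.0695) or by totals outside the digestive enzymes (0.0578). Transcripts of kininogen, the substrate of kallikrein, were scarce, as Kng1 and Kng2 had at most 13 and 7 counts in any library. Bdkrb2, the constitutive kinin receptor, had between 8 and 18 counts per library and a log2 fold change of 0.46 that did not pass the test. Kng1, Kng2 and Bdkrb2 were named after their values were seen.

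Markers of cell types other than acinar cells were read beside these values. Salivary gland, the other main site of Klk1, had 9 of 13 markers at 0 counts in every library, among them Bpifa2, Smgc and the Dcpp genes. Of the 3 tested, Egf, a growth factor gene, fell like Klk1, with 25.1, 21.6 and 27.9 CPM in mutants 1 to 3 and 40.6, 39.7 and 43.3 CPM in controls 1 to 3 (adjusted p by edgeR 0.00870). Amy1, the salivary amylase gene, rose, with 50.7, 50.7 and 46.2 CPM in mutants 1 to 3 and 21.5, 29.7 and 21.3 CPM in controls 1 to 3 (adjusted p by edgeR 0.00381). The gene is also on the list of digestive enzymes above, where the same call is counted among those that rose. For liver, where Ang and Rnase4 are strongly expressed, the summed level of 15 markers was between 198 and 325 CPM in mutants and between 177 and 209 CPM in controls, with Apoc3 and Serpina1a at 0 throughout. Most of this sum came from Ttr, which averaged 127 CPM in mutants and 122 CPM in controls, and Trf, at 84.1 and 65.3 CPM. Neither passed the edgeR test. Fga, Fgb, Fgg, Serpina1c, Cyp3a11 and Cps1 had at most 10 counts in any library. Ahsg, the plasma protein fetuin-A, rose, with 48.8, 14.3 and 33.0 CPM in mutants 1 to 3 and 0, 0.442 and 0 CPM in controls 1 to 3 (adjusted p by edgeR 0.000524). Alb, serum albumin, averaged 22.0 ± 13.5 CPM in mutants and 9.07 ± 2.84 CPM in controls (SD, n = 3 each) and did not pass (adjusted p by edgeR 0.151). Of 4 tested liver markers, 1 rose and 0 fell by edgeR and by DESeq2, and 3 higher and 0 lower had an unadjusted p under 0.05. Endothelial markers, 11 of 11 tested, did not pass by edgeR or DESeq2 in any case, with 0 at an unadjusted p under 0.05, and summed to between 301 and 329 CPM in mutants and between 304 and 318 CPM in controls. Of 14 tested duct markers, 0 passed by edgeR, while 8 had an unadjusted p under 0.05 (2 higher, 6 lower) and DESeq2 called 4 (1 higher, 3 lower). The shares over all genes were 1662 of 13017 at an unadjusted p under 0.05 by edgeR and 336 of 13015 called by DESeq2. Of 14 tested endocrine markers, 0 passed by edgeR, 3 had an unadjusted p under 0.05 and DESeq2 called 0. Duct markers summed to between 1402 and 1706 CPM in mutants and between 1902 and 1960.46 CPM in controls. The part of these cell types in the results was not tested. The marker genes were named after their values were seen.

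**Figure D5:**
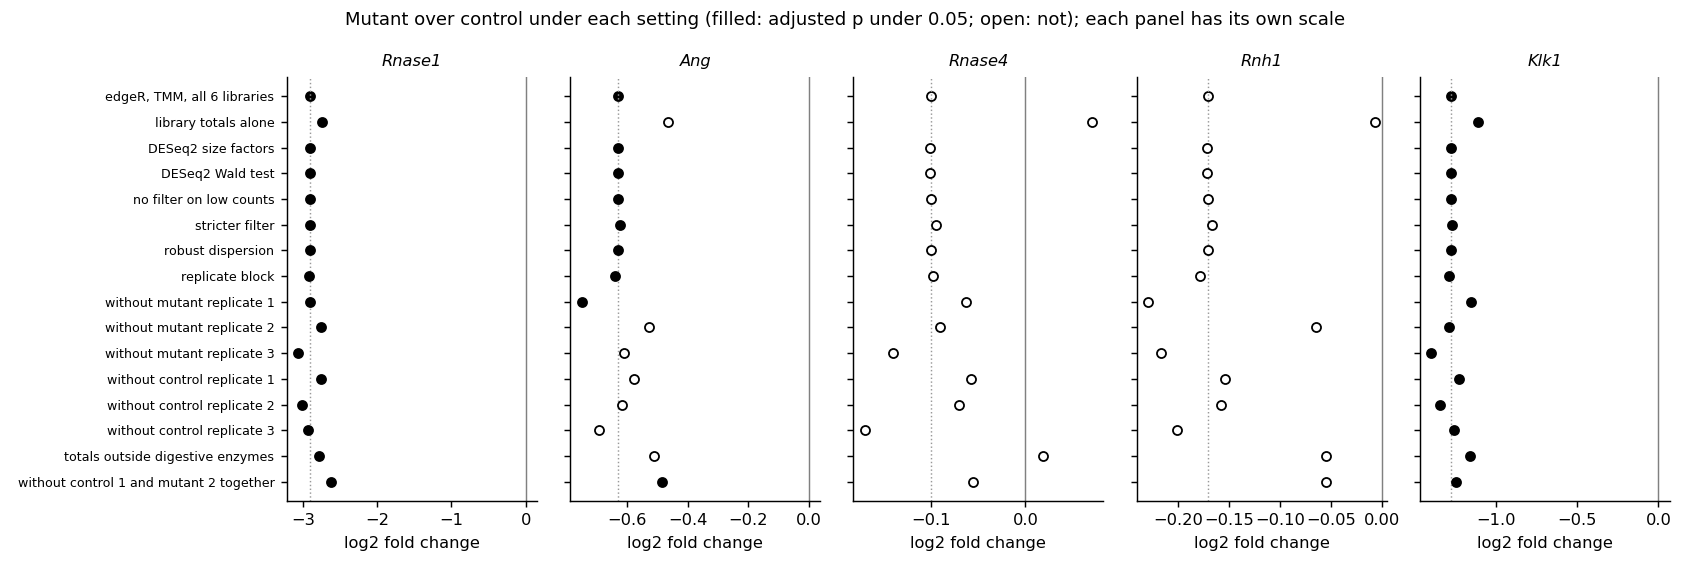
Log2 fold change of mutant over control (horizontal axes, a separate scale for each gene) for the 5 members under each scaling, filter, test and choice of libraries. Filled points have an adjusted p under 0.05 and the dotted line marks the value with all 6 libraries. Rnase1 and Klk1 stay filled under every setting, Ang changes between filled and open, and Rnase4 crosses 0 under 2 scalings.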

How the data were processed

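TruSeq mRNA libraries of 6 whole pancreas samples were sequenced. The authors deposited whole-number counts per gene symbol, 1 file per library. The build mm10 and the tools STAR, cutadapt 1.13, DESeq2 and HTSeq 0.6.1p1 are named, with no role or order, per the submitters' processing notes. Annotation and strand setting were not given in the sources used here.

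Groups came from the sample titles. In R 4.3.3, edgeR 4.0.16 was run as a quasi-likelihood test of mutant over control after filterByExpr and TMM, without covariates, with Benjamini-Hochberg adjustment over 13017 genes and a threshold of 0.05. Each SE is the size of the log2 fold change over the root of F. Alternatives included DESeq2 1.42.0. The code was tested on simulated data. Within groups, pairs of libraries differed by a chi-square of 5.83 to 20.5 per degree of freedom, which is more than counting error alone gives. This value cannot tell whether separate libraries were made from the same RNA or animal.

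The members and gene lists were chosen with earlier results of these data known. Always named were the members and Prox1. Also named were family, kinin, nuclease and partner genes past the threshold, the most abundant other gene of each of the 2 families, and for each called member the 3 genes nearest in pattern. Exceptions are stated. Other lists held acinar granule and secretion genes and markers of further cell types.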

Additional observations from a re-analysis of the deposited data

How the results depend on the processing

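The calls of Rnase1 and Klk1 held in all 15 and 16 alternatives, with log2 fold changes between -3.06 and -2.62 and between -1.40 and -1.11. Rnh1 did not pass in any of 15 (-0.23 to -0.01). Ang kept its direction in all 17 and lost its call in 8: with library totals alone (-0.46), with Ang and Rnase4 summed (-0.14), with totals outside the digestive enzymes as scaling (-0.51, adjusted p = 0.0619), and without 1 library other than mutant 1, the values without 1 library lying between -0.75 and -0.53. Rnase4 turned to 0.0701 with library totals alone and to 0.0185 with totals outside the digestive enzymes, passing in neither. Library totals moved the median of all genes to 0.17, and totals outside the enzymes to 0.12. The number of genes past the threshold was 268 (71 higher, 197 lower), 320 with library totals alone (190 higher, 130 lower), 296 with totals outside the enzymes (147 higher, 149 lower), and between 125 and 301 without 1 library. It was 484 without control 1 and mutant 2 together. Totals outside the enzymes and the subset without control 1 and mutant 2 were chosen after seeing the data. The stricter filter left Klk1b24 untested. Without 1 library, the Rnase1 log2 fold change lay between -3.06 and -2.76, that of Klk1 between -1.40 and -1.15, of Rnase4 between -0.17 and -0.06, and of Rnh1 between -0.23 and -0.06. A replicate block, by the numbers in the titles, gave 241 called genes and changed no call of a member (Ang -0.64, adjusted p = 0.0327), but Klk1b24 missed the threshold (adjusted p = 0.0801). Same-numbered libraries did not deviate together (correlations 0.08, 0.03 and -0.07), and 1 of 3 mutants correlated best with its own number. Counting limits the values of genes near 1 CPM, and the number of libraries those of abundant genes.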

Other observations

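Counts and medians of marker lists that were not given above are as follows. They stand beside 1662 of all 13017 genes at an unadjusted p under 0.05 by edgeR and 336 of 13015 called by DESeq2. Of 23 tested acinar granule and secretion genes, 1 rose and 4 fell by edgeR, with a median log2 fold change of -0.22. An unadjusted p under 0.05 was found for 10 of them (1 higher, 9 lower), and DESeq2 called 7 (1 higher, 6 lower). Of 11 tested macrophage markers, 2 rose and 1 fell by edgeR, with a median of 0.53. An unadjusted p under 0.05 was found for 8 of them (7 higher, 1 lower), and DESeq2 called 3 (2 higher, 1 lower). Among 11 fibroblast and stellate markers, 10 markers of eosinophils, neutrophils and mast cells and 4 erythroid markers tested, 0 passed by edgeR, with medians of 0.05, -0.94 and -1.77. An unadjusted p under 0.05 was found for 1, 4 and 4 of them, and DESeq2 called 1, 3 and 0. Of 8 tested adipocyte markers 1 fell, of 3 salivary gland markers 1 rose and 1 fell, and of 2 intestine markers 1 fell, with medians of -0.62, -0.51 and -0.07. An unadjusted p under 0.05 was found for 4, 2 and 1 of them, and DESeq2 called 1, 2 and 1. The medians of the duct, endocrine, endothelial and liver markers were -0.19, -0.06, 0.03 and 0.84.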
